A study of Mus musculus with 10 samples.

Results

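Fabp7, Rfx4 and 8 further genes, most of them known from radial glia and neural progenitors, were followed in RNA-seq of the mouse medial habenula, an epithalamic cell group whose projection neurons release acetylcholine. The 10 genes were Fabp7, Fabp5, Fabp3, Rfx4, Sox2, Nes, Hes1, Hes5, Notch1 and Pax6. They were taken by symbol from the 56691 gene rows of the table, and each matched 1 row. The set was drawn up with the difference between the groups in view, Fabp7 and Rfx4 being among the few genes called higher. Values of the 10 genes under that contrast are therefore a description. Calls from the fit across all genes are given with the share or count over all genes, and support nothing about the 10.

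There was 1 library per wild-type mouse. The 4 control mice received saline throughout. The 6 withdrawal mice received nicotine ditartrate at 4 mg/kg into the peritoneum, in 2 daily injections for 14 days, and saline from day 15. Both groups were sampled on day 17. The labels differ on the material: the sample labels give sorted cholinergic neurons, the series record gives tissue of the nucleus. Age, sex, litter and batch are not in the labels used here.

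Radial glia are the stem cells of the embryonic brain, and their filament, transcription factor and lipid carrier genes remain active in part in astrocytes, ependyma, tanycytes and adult stem cells. Fatty acid-binding proteins (FABPs) carry long-chain fatty acids through the cytoplasm. Notch receptors, when cut by gamma-secretase, release a fragment that joins the DNA-binding protein RBPJ and switches on repressors of the Hes family, which hold progenitors in an undifferentiated state.

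Library totals ran from 15023448 to 22026333 counts, and the 10 genes had between 35 and 1579 counts in a library. Control 2 and withdrawal 2 stood apart. Their summed level of 11 medial habenula neuron markers was 35.6 and 32.6 CPM (counts scaled to the size of the library, with TMM factors), against 1303 to 1975 CPM in the other 8 libraries. In these libraries hippocampal and cortical markers summed to 1541 and 409 CPM, against 267 to 499 CPM in controls 1, 3 and 4 and 179 to 214 CPM in the other 5 withdrawal libraries, and GABAergic markers to 910 and 1153 CPM, against 88.9 to 388 CPM. Glial transcripts were abundant in all 10 libraries: 20 astrocyte markers summed to 6282 to 11094 CPM. The log2 changes of the 10 genes, and the calls among marker lists that these libraries moved most, are given with and without them.

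Upstream sequences of 3 genes are shown because Fabp7, Hes5 and Rfx4 had the largest differences between the groups. They are the 250 bases before the annotated start (RefSeq, GRCm38.p6), not the mm39 build of the counts. The windows are chr10:57784673-57784922 for Fabp7, chr4:154960673-154960922 for Hes5 and chr10:84755798-84756047 for the first of 2 listed Rfx4 starts, all on the plus strand. Capitals mark TGGGAA, the core letters bound by RBPJ, and ACAAT, core letters bound by SOX proteins, on either strand (TTCCCA and ATTGT in reverse).
Fabp7: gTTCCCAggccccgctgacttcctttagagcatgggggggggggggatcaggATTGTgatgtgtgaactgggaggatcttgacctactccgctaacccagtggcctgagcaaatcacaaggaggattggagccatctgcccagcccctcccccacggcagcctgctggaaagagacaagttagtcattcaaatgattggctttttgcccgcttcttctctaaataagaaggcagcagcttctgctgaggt
Hes5: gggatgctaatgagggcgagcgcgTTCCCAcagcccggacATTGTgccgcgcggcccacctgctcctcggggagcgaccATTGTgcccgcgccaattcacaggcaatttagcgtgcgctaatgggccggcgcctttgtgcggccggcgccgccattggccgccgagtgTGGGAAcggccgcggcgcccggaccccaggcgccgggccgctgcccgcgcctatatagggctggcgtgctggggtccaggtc
Rfx4: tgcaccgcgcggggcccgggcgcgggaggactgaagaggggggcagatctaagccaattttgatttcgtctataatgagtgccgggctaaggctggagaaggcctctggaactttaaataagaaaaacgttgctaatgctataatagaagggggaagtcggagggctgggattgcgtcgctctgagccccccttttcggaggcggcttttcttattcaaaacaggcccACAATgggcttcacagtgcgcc
The Hes5 window held 2 TGGGAA matches, 1 on each strand, and 2 ACAAT matches. The Fabp7 window held 1 match of each, with the TGGGAA match at its far end, and the Rfx4 window held a single ACAAT match, 22 bases before the start. TGGGAA was found in 21.6% and ACAAT in 27.7% of the 32851 mouse windows of this length, so matches of this kind are common. The string GTTGCC, one arm of the site bound by RFX proteins, was present in 10.4% of all windows and, among the members, in a Pax6 window. The table held windows for 8 of the 10 genes, with Fabp5 and Hes1 missing. No matches overlapped each other, and a match is not evidence of binding.

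The lipid carrier Fabp7 differed most. Fabp7 (ENSMUSG00000019874), the brain FABP of radial glia and astrocytes, stood at 15.9, 8.96, 16.7 and 17.9 CPM in controls 1 to 4. In withdrawal its lowest, median and highest values were 30.7, 61.9 and 79.9 CPM. All 6 withdrawal libraries lay above all 4 controls, and withdrawal 2 was the lowest of its group as control 2 was of its own. The means were 14.9 ± 4.04 CPM (SD, n = 4) and 59.3 ± 17.2 CPM (SD, n = 6), a 3.98-fold difference. The fitted log2 change was 1.99 (SE 0.286) over 10 libraries and 1.94 (SE 0.143) without control 2 and withdrawal 2. In RNA pooled from many cells, a change in the number of cells of a type and a change in RNA per cell cannot be told apart.

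The 2 relatives moved less. Fabp5, which is found in neurons as well as glia, stood at 34.7, 42.4, 31.4 and 30.2 CPM in controls, and its lowest, median and highest withdrawal values were 40.3, 47.0 and 53.03 CPM. The groups overlapped only through control 2, the highest control, which lay above withdrawal 2 and withdrawal 6. On the FPKM scale, which carries no TMM factor, Fabp5 did not overlap, at 8.63 to 9.85 in controls and 11.1 to 15.2 in withdrawal. Its log2 change was 0.44 (SE 0.122), and 0.58 (SE 0.0941) without these libraries. Fabp3, the FABP of heart and of neurons, stood at 19.8, 47.9, 21.4 and 14.9 CPM in controls and at 19.6 to 29.7 CPM in withdrawal. Control 2 was far above the rest, and the sign of the difference turned with it: the log2 change of Fabp3 was -0.09 (SE 0.293) over 10 libraries, 0.38 without control 2 and 0.43 (SE 0.159) without both. It was also positive, at 0.042, when library totals replaced the TMM factors. Fabp3 overlaps Zcchc17 on the other strand, and the strand setting of the counting is not given in the sources used here.

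Compared per length, the order of the 3 carriers differed between the groups. In controls Fabp3 had the highest FPKM (29.2 ± 13.0, SD, n = 4), followed by Fabp7 (11.7 ± 3.93) and Fabp5 (9.26 ± 0.663), and Fabp3 was highest in each of the 4 libraries. In withdrawal Fabp7 led (48.2 ± 14.4, SD, n = 6), followed by Fabp3 (30.1 ± 4.96) and Fabp5 (13.3 ± 1.61). Fabp7 led in 5 of the 6, while in withdrawal 2 Fabp7 and Fabp3 stood at 24.1 and 24.8 FPKM. Fabp7 made up 9.27% to 35.1% of the summed FPKM of the 3 genes in controls and 40.2% to 59.3% in withdrawal. Control 2 held the lowest share and withdrawal 2 the lowest of its group.

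**Figure D1:**
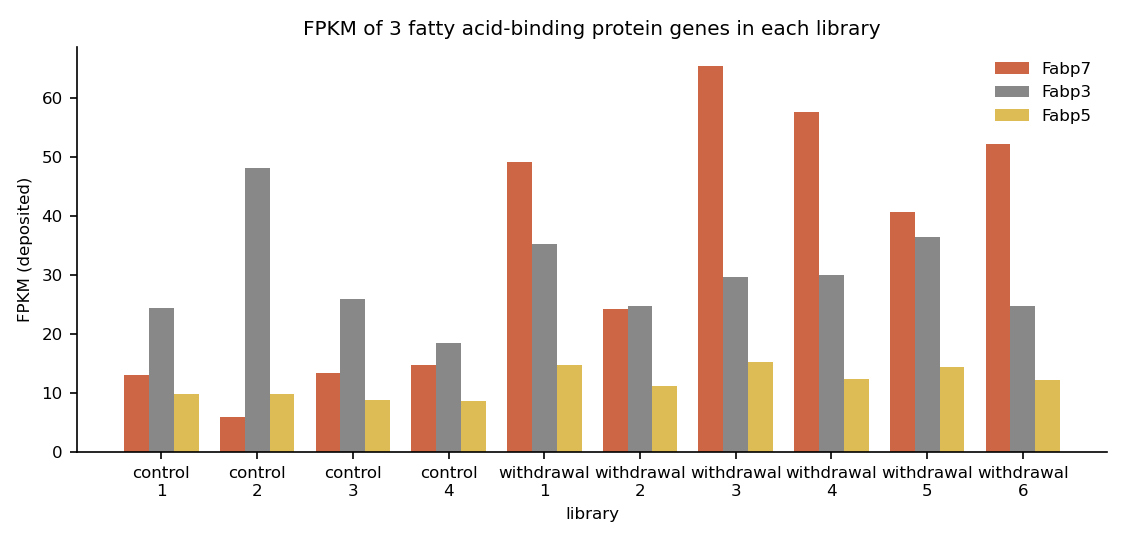
Deposited FPKM (vertical axis) of Fabp7, Fabp3 and Fabp5 in each of the 10 libraries (horizontal axis), 1 bar per gene and library. Fabp3 is the tallest bar in the 4 controls and Fabp7 in 5 of the 6 withdrawal libraries, with both near equal in withdrawal 2 (24.1 and 24.8).

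Among the transcription factors, Rfx4 and Sox2 were higher in every withdrawal library than in any control. Rfx4 (ENSMUSG00000020037), an RFX factor needed for cilia and for dorsal midline structures of the developing brain, stood at 20.8, 15.6, 15.2 and 16.7 CPM in controls. In withdrawal its lowest, median and highest values were 24.2, 29.5 and 34.2 CPM. Control 1 was the highest control and withdrawal 2 the lowest withdrawal library, with no overlap. The log2 change was 0.80 (SE 0.120), and it was also 0.80 (SE 0.107) without control 2 and withdrawal 2.

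Sox2 (ENSMUSG00000074637), a factor that maintains neural stem cells and stays on in astrocytes, stood at 43.7, 36.5, 44.5 and 48.05 CPM in controls and at 56.1 to 73.7 CPM (median 61.7) in withdrawal. Here withdrawal 2 was the highest library and control 2 the lowest. The log2 change was 0.53 (SE 0.0992), and 0.40 (SE 0.0655) without both. Sox2 lies within the longer transcript Sox2ot on the same strand, which had 48.5 ± 3.72 CPM (SD, n = 4) and 64.5 ± 20.2 CPM (SD, n = 6), so reads of the 2 genes may not be fully separated. Pax6, which patterns the forebrain and marks cortical radial glia, stood at 11.4 to 13.1 CPM in controls. Withdrawal 3 and 6 stood at 24.3 and 25.2 CPM, while withdrawal 1, 2 and 5 (12.2, 12.4 and 11.3 CPM) lay at the level of controls and withdrawal 4 was between, at 15.5 CPM. The Pax6 log2 change was 0.48 (SE 0.254), and 0.54 (SE 0.275) without control 2 and withdrawal 2, with 2 of 6 libraries well above the rest.

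In the Notch pathway the log2 changes of the receptor and its targets differed in size. Notch1, the receptor, stood at 37.9, 51.2, 45.2 and 42.1 CPM in controls and at 39.1 to 43.5 CPM in withdrawal, with all 6 withdrawal libraries inside the range of controls (log2 change -0.11, SE 0.0837, and -0.05, SE 0.0717, without control 2 and withdrawal 2). Hes5, a Notch-induced repressor of neuronal differentiation, stood at 4.99, 1.92, 5.32 and 4.57 CPM in controls. The withdrawal values of Hes5 had a minimum of 5.11, a median of 9.35 and a maximum of 11.98 CPM. Withdrawal 2, the minimum, lay just under control 3, and the other 5 lay above all controls. The log2 change of Hes5 was 1.17 (SE 0.314), and 1.05 (SE 0.147) without control 2 and withdrawal 2, second in size to Fabp7.

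Hes1, the related repressor, stood at 7.32 to 7.55 CPM in the 4 controls, the narrowest range of the 10 genes. Its withdrawal values ran from 5.77 CPM in withdrawal 3 to 14.3 CPM in withdrawal 2, on both sides of the controls (log2 change 0.36, SE 0.225, and 0.20, SE 0.201, without control 2 and withdrawal 2). Per length, the ratio of Hes5 to Hes1 FPKM was 0.987, 0.389, 1.075 and 0.932 in controls. It was 2.18, 0.533, 2.43, 1.504, 2.18 and 1.18 in withdrawal 1 to 6, above all controls in every library but withdrawal 2.

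Nes, which encodes nestin, an intermediate filament of progenitors that vessels also make, stood at 14.3, 9.34, 10.8 and 14.6 CPM in controls. In withdrawal its lowest, median and highest values were 14.1, 18.9 and 24.7 CPM. Withdrawal 1 alone lay within the range of controls. The log2 change was 0.64 (SE 0.178), and 0.43 (SE 0.143) without control 2, the lowest control, and withdrawal 2, the highest library.

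**Figure D2:**
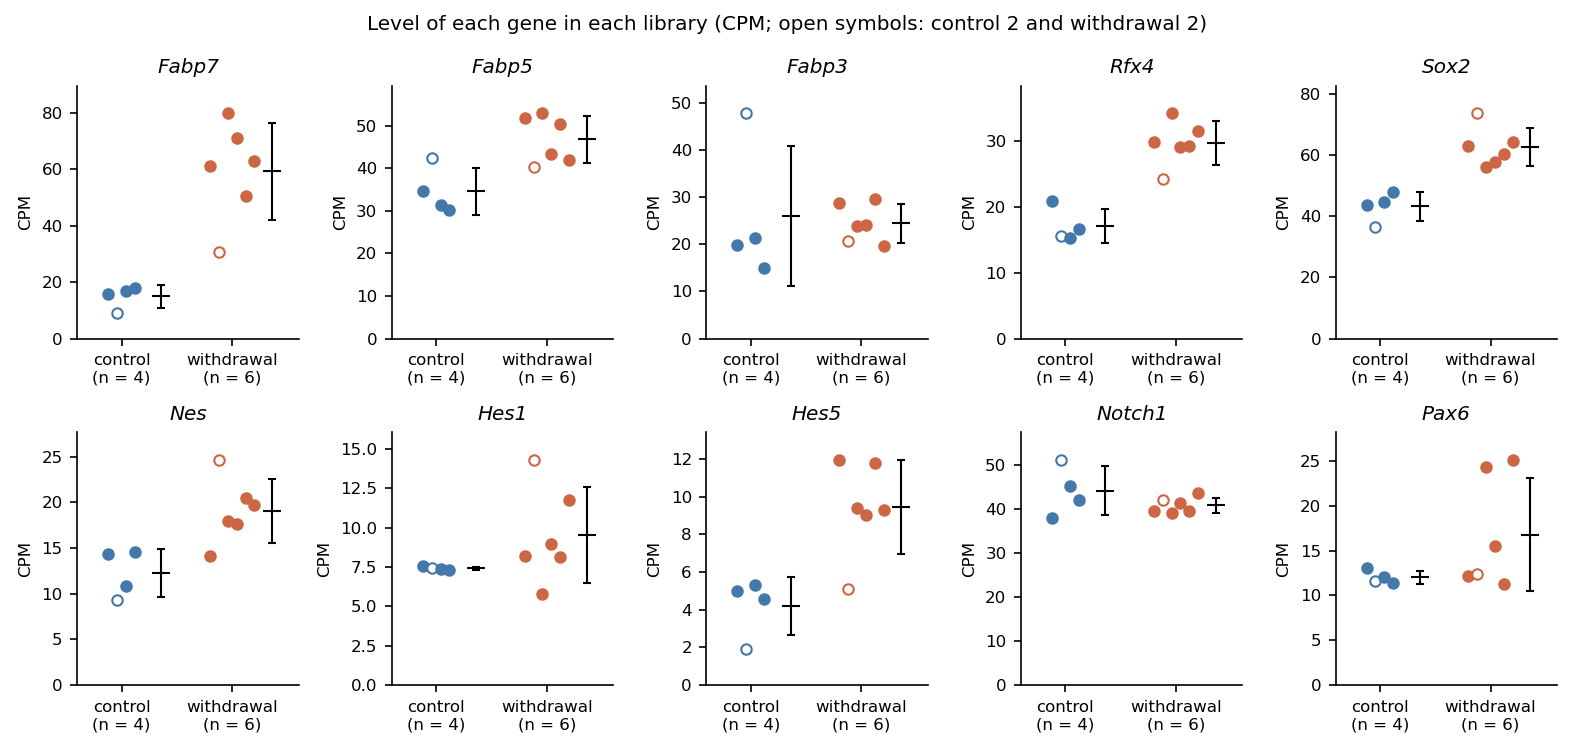
Level in CPM (vertical axis, from 0) of each of the 10 genes in the 4 control and 6 withdrawal libraries, 1 point per library, with the mean and SD beside the points. Open symbols are control 2 and withdrawal 2. The groups do not overlap for Fabp7, Rfx4 and Sox2.

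All 10 genes passed the filter on low values (mean FPKM 1 or more), as did 14928 genes in all, and these were tested together with edgeR. At a threshold of 0.05 on the adjusted p, 2 of the 10 genes were called higher, Fabp7 and Rfx4, and none lower. Over all tested genes 0.208% were called and 0.0335% were called higher. For 3 of the 10 all withdrawal libraries lay above all controls, against 1.62% of tested genes. The means of 8 of the 10 were higher in withdrawal, against 50.6% of tested genes, and the median log2 change of the 10 was 0.51, against 0.0034 over all tested genes. These counts describe a set chosen from this contrast. The call of Fabp7 was kept when control 2 or withdrawal 2 was left out and lost without any other single library; that of Rfx4 was kept without control 1 or withdrawal 2 and lost without any other. Without both control 2 and withdrawal 2, 5 of the 10 were called higher (Fabp7, Rfx4, Sox2, Hes5 and Fabp5), against 6.36% of tested genes, and DESeq2 on all libraries called these 5 and Nes, against 1.01%.

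**Figure D3:**
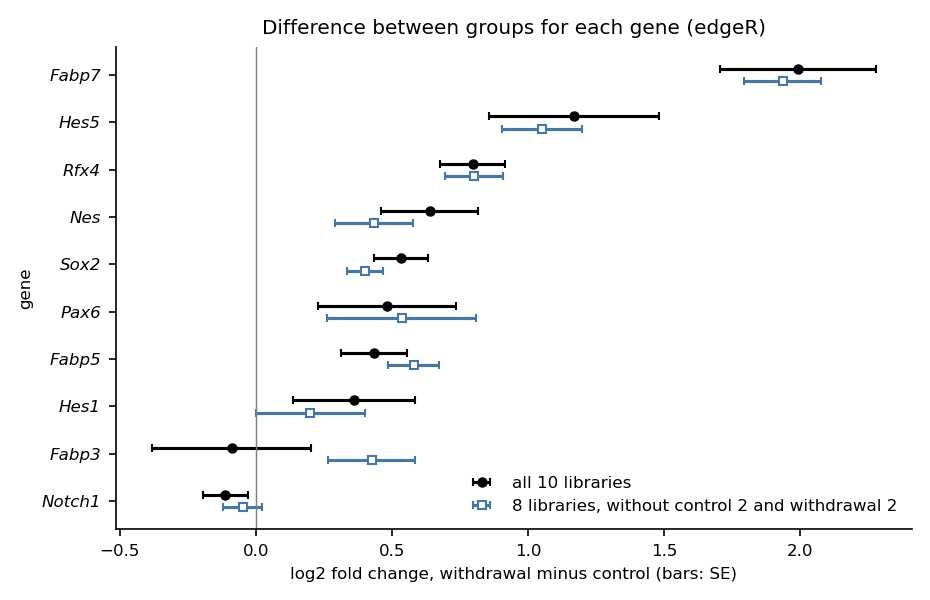
Fitted log2 fold change, withdrawal minus control (horizontal axis), of each gene (vertical axis), with bars of 1 SE, over all 10 libraries (filled) and without control 2 and withdrawal 2 (open). Fabp7 (1.99 and 1.94) and Hes5 (1.17 and 1.05) are the largest in both, and Fabp3 changes sign (-0.09 and 0.43).

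Per length and over all 10 genes, the control order of mean FPKM was Fabp3, Sox2 (20.4 ± 3.97), Fabp7, Fabp5, Hes1 (3.51 ± 0.340), Rfx4 (3.50 ± 0.738), Hes5 (3.04 ± 1.26), Notch1 (2.96 ± 0.189), Nes (1.86 ± 0.530) and Pax6 (0.990 ± 0.128; SD, n = 4). Spread is read here as the interval of mean ± SD. Fabp3 and Sox2, and Fabp7 and Fabp5, did not differ beyond their spread, nor did the neighbours Hes1 and Rfx4, Rfx4 and Hes5, and Hes5 and Notch1. In withdrawal the order was Fabp7, Sox2 (30.8 ± 2.74), Fabp3, Fabp5, Hes5 (7.03 ± 1.87), Rfx4 (6.37 ± 0.794), Hes1 (4.73 ± 1.47), Nes (3.01 ± 0.525), Notch1 (2.91 ± 0.144) and Pax6 (1.46 ± 0.568; SD, n = 6). Sox2 and Fabp3, Hes5 and Rfx4, Rfx4 and Hes1, Hes1 and Nes, and Nes and Notch1 were neighbours that did not differ beyond their spread. The ranges of Fabp7 and Sox2 also overlapped, and in withdrawal 2 Sox2 (35.3 FPKM) stood above Fabp7 (24.15 FPKM).

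Other genes of the same pathways, in 10 lists without the 10 genes above, did not pass the test. Of 140 tested genes of these lists, 0 were called by edgeR after adjustment over all genes, the lowest adjusted p being 0.157 for Fam107a. At an unadjusted p under 0.05 there were 18 (9 higher and 9 lower), or 12.9%, against 15.4% of all tested genes. DESeq2 called 3 of the 140, against 380 of all 14928 tested genes: Fads6 (log2 change 0.40), Fam107a (-0.96) and Gli2 (-0.52). The median log2 change of the 140 was -0.0082, against 0.0034 over all tested genes.

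Of the list of radial glia and adult neural stem cell genes, 9 of 24 tested members had higher means in withdrawal and 15 lower, with a median log2 change of -0.14 and 0 called by edgeR (2 at an unadjusted p under 0.05, 1 by DESeq2). Its members with the highest FPKM were Gfap, the astrocyte filament, with 498 ± 37.7 CPM in controls (SD, n = 4) and 352 ± 151 CPM in withdrawal (SD, n = 6), and Fam107a, an outer radial glia and astrocyte gene, with 448 ± 93.5 and 231 ± 68.6 CPM. As a list, these further radial glia genes did not share the direction of most of the 10. The list has 2 genes in common with the astrocyte markers. Among neuroblast and proliferation genes 2 of 8 tested members had higher means and 0 were called by edgeR (1 at an unadjusted p under 0.05, 0 by DESeq2). Pcna (36.5 ± 1.95 and 32.9 ± 2.87 CPM) and Ccnd2 (72.3 ± 11.1 and 60.9 ± 38.4 CPM) had the highest FPKM. The 2 with higher means were Eomes (6.57 ± 3.63 and 18.3 ± 21.0 CPM) and Dcx (29.5 ± 7.14 and 39.0 ± 3.85 CPM). The cycling-cell gene Mki67, which did not pass the FPKM filter, stood at 2.24 to 4.56 CPM in controls, at 0.506 to 1.40 CPM in 5 withdrawal libraries and at 4.56 CPM in withdrawal 2. Also below the filter, Top2a had a lower mean in withdrawal (3.28 ± 1.40 and 1.18 ± 0.625 CPM) and Cdk1 a higher one (0.346 ± 0.107 and 0.638 ± 0.323 CPM).

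Most relatives of the FABPs were at low levels: 2 of 12 passed the FPKM filter, and 0 were called by edgeR or DESeq2 (0 at an unadjusted p under 0.05). Crabp2, a carrier of retinoic acid, had 1.54 ± 0.576 CPM in controls (SD, n = 4) and 1.498 ± 0.558 CPM in withdrawal (SD, n = 6). Among 21 tested genes of fatty acid uptake, activation and nuclear receptors, 6 had higher means. The desaturases Fads2 (269 ± 68.9 and 289 ± 38.2 CPM) and Fads1 (330.4 ± 44.9 and 302 ± 17.7 CPM) had the highest FPKM. No gene was called by edgeR (3 at an unadjusted p under 0.05, and Fads6 by DESeq2). In the RFX family 4 of 7 tested genes had higher means and 0 were called (2 at an unadjusted p under 0.05, 0 by DESeq2). Rfxap, a subunit of the complex that drives MHC class II genes, had 24.0 ± 3.93 and 23.0 ± 0.947 CPM, and the ciliary factor Rfx3 had 116 ± 28.6 and 65.7 ± 35.5 CPM, a lower mean where that of Rfx4 was higher. Of 28 cilia and hedgehog genes 21 had higher means, against 50.6% of all tested genes, with a median log2 change of 0.14. The sum of this list was lowest in control 2, at 976 CPM. Without control 2 and withdrawal 2 the list summed to 1209 to 1294 CPM in controls and 1269 to 1431 CPM in withdrawal, with overlap. The motor subunit Kif3a (139 ± 9.30 and 150 ± 9.79 CPM) and Ift20 (28.8 ± 3.17 and 27.6 ± 1.45 CPM) had the highest FPKM. Here too edgeR called 0 (6 at an unadjusted p under 0.05, and Gli2 by DESeq2).

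Of the 7 tested Notch ligands and receptors other than Notch1, 5 had higher means. The non-canonical ligand Dner had 239 ± 38.6 and 272 ± 63.1 CPM, and Jag2, a canonical ligand, 44.1 ± 3.40 and 50.6 ± 8.31 CPM. Among 18 processing and modulator genes 7 had higher means, with the protease Adam10 at 110.2 ± 22.7 and 103 ± 18.5 CPM and the gamma-secretase subunit Psenen at 25.3 ± 3.28 and 28.2 ± 2.16 CPM. Of the 13 tested nuclear factors and targets 6 had higher means, led in FPKM by the HLH inhibitors Id4 (190.2 ± 46.3 and 232 ± 19.6 CPM) and Id2 (52.7 ± 5.55 and 58.2 ± 8.66 CPM). In the SOX family 7 of 13 had higher means, and the oligodendrocyte factors Sox10 (47.6 ± 2.21 and 53.3 ± 14.7 CPM) and Sox8 (49.9 ± 5.14 and 40.3 ± 6.39 CPM) had the highest FPKM. No gene of these 4 lists was called by edgeR or DESeq2, and each list held 1 gene at an unadjusted p under 0.05.

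Astrocyte markers as a group were not higher in withdrawal. The summed level of the 20 astrocyte markers was 7942 to 11094 CPM in controls and 6282 to 9329 CPM in withdrawal, with 5 of 6 withdrawal libraries below all controls. Without control 2 and withdrawal 2 the ranges were 7942 to 8524 and 6282 to 7212 CPM. Of the 20 astrocyte genes, 5 had higher means and 0 were called by edgeR (3 at an unadjusted p under 0.05). DESeq2 called 3 of them, against 380 of all 14928 tested genes. The median log2 change of the 20 was -0.075. The sum weighs abundant genes most. The 2 most abundant were Slc1a2 (1974 ± 1055 CPM in controls and 1286 ± 620 CPM in withdrawal) and Glul (1761 ± 219 and 1095 ± 222 CPM). The sum is therefore not a measure of astrocyte number. Relative to that sum, Fabp7 stood at 1.89, 0.808, 1.96 and 2.26 CPM per 1000 astrocyte CPM in controls and at 8.47, 3.29, 11.2, 10.01, 7.35 and 9.995 in withdrawal 1 to 6. Rfx4 stood at 1.41 to 2.47 and at 2.59 to 5.01 on the same scale, and Sox2 at 3.29 to 6.05 and at 7.87 to 10.2, again without overlap, while Hes5 overlapped (0.173 to 0.624 and 0.548 to 1.72). Fabp7, Rfx4 and Sox2 did not overlap in CPM either. Dividing by a sum that was below all controls in 5 of 6 withdrawal libraries widens such a gap. These ratios are therefore only a description.

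The tanycyte list, another cell type with radial processes, summed to 209 to 346 CPM in controls and 75.2 to 164 CPM in 5 withdrawal libraries, with withdrawal 2 at 322 CPM and control 2, the highest control, at 346 CPM. Its defining factor Rax was at or near 0, at 0 to 0.708 CPM. Ependymal markers summed to 234 to 321 CPM in controls 1, 3 and 4, to 9.01 CPM in control 2 and to 222 to 404 CPM in withdrawal. Choroid plexus markers summed to 7393 to 10298 CPM in controls 1, 3 and 4 and to 82.9 CPM in control 2. In withdrawal they ran from 110 CPM in withdrawal 3 to 13306 CPM in withdrawal 2, and from 110 to 9777 CPM without withdrawal 2. Oligodendrocyte precursor markers summed to 242 to 356 CPM in controls and 268 to 328 CPM in withdrawal, and 1 of their 8 genes, Gpr17, was called lower (95.2 ± 7.70 and 56.8 ± 6.76 CPM, edgeR adjusted p = 0.0261). Mature oligodendrocyte markers summed to 9379.6 to 13352 and 6308 to 15649 CPM, with 3 withdrawal libraries below all controls and withdrawal 2 above them. Without control 2 and withdrawal 2 these groups did not overlap, at 12031 to 13352 and 6308 to 10763 CPM. Endothelial and mural markers summed to 339 to 386 and 254 to 376 CPM, and microglial markers to 222 to 374 and 186 to 323 CPM. Meningeal markers summed to 29.6 to 249 and 43.3 to 219 CPM, and without these libraries to 201 to 249 and 43.3 to 154 CPM. Thalamic markers summed to 143 to 361 and 204 to 620 CPM, with 5 of 6 withdrawal libraries above all controls. Red blood cell markers summed to 30.7 to 76.6 and 49.995 to 642 CPM, with 4 of 6 above all controls.

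Calls among these lists depended on control 2 and withdrawal 2. In the other 8 libraries edgeR called 14% of all tested genes, 6.36% higher and 7.63% lower. It called 7 of 20 astrocyte genes there (2 higher and 5 lower), 4 of 7 tanycyte genes (all lower), 7 of 8 mature oligodendrocyte genes (all lower), 4 of 7 hippocampal and cortical genes (all lower) and 3 of 7 meningeal genes (all lower). Of 8 oligodendrocyte precursor genes 1 was called higher and 3 lower. The part of cell content in the differences of the 10 genes was not tested beyond these values.

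**Figure D4:**
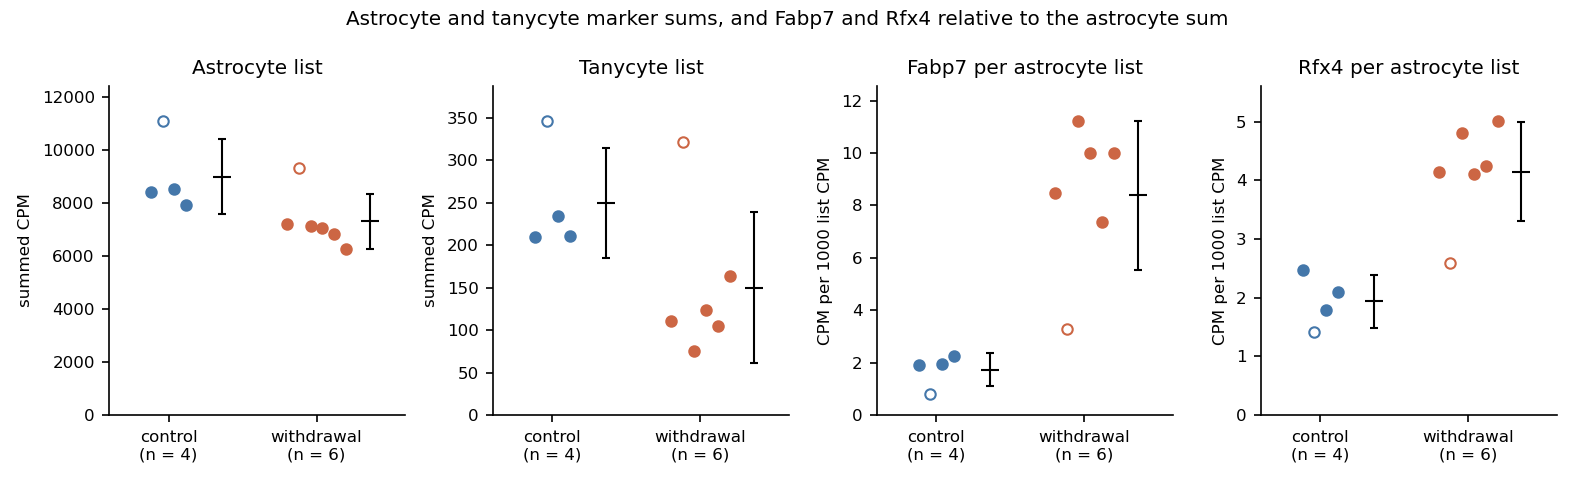
Summed CPM of 20 astrocyte and 9 tanycyte markers, and Fabp7 and Rfx4 CPM per 1000 CPM of the astrocyte sum (vertical axes, from 0), in 4 control and 6 withdrawal libraries, 1 point per library, with mean and SD. Open symbols are control 2 and withdrawal 2. In 5 of 6 withdrawal libraries the astrocyte sum lies under the lowest control. Fabp7 and Rfx4 do not overlap between the groups relative to that sum, as they did not in CPM before the division.

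Genes that varied most like Fabp7 within the groups were sought over the 8 libraries other than control 2 and withdrawal 2, after each group was centred. By Pearson r of log2 CPM they were Cep135 (0.958), Tfpt (0.956), Lgi4 (0.951), Rpain (0.939) and Rny1 (0.938), among 19 genes with an r of at least 0.9. For Rfx4 they were Parp16 (0.986), Txnl1 (0.981), Cd99l2 (0.977), Acp1 (0.969) and Ifit2 (0.960), among 89 such genes. Rny1 had a mean of only 0.27 CPM, so its r rests on few reads. How many genes would reach an r of 0.9 by chance was not tested. With all 10 libraries the r of Tfpt, Lgi4 and Rny1 with Fabp7 was -0.50, 0.026 and -0.079, and that of Parp16 and Acp1 with Rfx4 was 0.36 and 0.28, so these likenesses depend on which libraries enter. None of the other 9 members was among the 5 genes nearest to Fabp7.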

How the data were processed

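RNA-seq libraries of 10 mice were used, grouped by their titles. Per the submitters' processing notes, cutadapt 1.9.1, HISAT2 2.2.1, HTSeq 0.6.1 and build mm39 were used. The annotation release and strand setting are not given in the sources used here. The deposited table held raw read counts per gene and FPKM, which divides by gene length and by library size, per the file headers. Symbols came from GENCODE M21, which named 52073 of the 56691 rows.

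The 14928 genes whose FPKM averaged 1 or more were tested with the quasi-likelihood test of edgeR 4.0.16 (R 4.3.3) on the counts with TMM factors, 2-sided. P-values were adjusted by Benjamini-Hochberg across these genes, with a threshold of 0.05. SEs are the absolute log2 change over the root of the F statistic. CPM uses TMM library sizes, and correlations use log2 CPM with a prior count of 2. Alternatives were RLE factors, library totals, DESeq2 1.42.0, limma 3.58.1 on log2(FPKM + 1) and log2(FPKM + 0.1), no FPKM filter (at least 10 counts in all), leaving out libraries and a replicate block. The edgeR script was tested on simulated data.

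The members, lists, libraries left out and rules were chosen with earlier results of these data known. Named genes were the 10 members, from each pathway list up to 4 called genes or else the 2 with the highest FPKM, and the 5 genes most like Fabp7 and Rfx4. 1 gene that this rule names is not reported here. Mki67, Top2a, Cdk1, Eomes, Dcx, Slc1a2, Glul, Rax, Zcchc17, Sox2ot, Gpr17 and the genes called by DESeq2 were named after their values were seen. Replicates are separate mice by the design text. No batch is given in the labels.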

Additional observations from a re-analysis of the deposited data

Results flagged for a closer look

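No value of the 10 genes stood apart from its group by the test for a single distant library. Among 14 cell type marker sums in 2 groups, and the 10 genes, 48 groups of values were examined, and 8 held such a library, where about 1 in 20 is flagged by chance. Withdrawal 2 was far from the other 5 withdrawal libraries in 7 of them. Its astrocyte markers summed to 9329 CPM (6282 to 7212 in the others), tanycyte markers to 322 CPM (75.2 to 164), microglial markers to 323 CPM (186 to 235) and red blood cell markers to 642 CPM (49.995 to 175). Its medial habenula neuron markers summed to 32.6 CPM (1303 to 1975), hippocampal and cortical markers to 409 CPM (179 to 214) and GABAergic markers to 1153 CPM (88.9 to 257). Control 2 was far from the other controls in microglial markers, at 374 CPM (222 to 243).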

How the results depend on the processing

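The log2 changes of the 10 genes moved by less than the spread between replicates in 179 of 180 values over 18 alternatives. The exception was Fabp3, at 0.43 without control 2 and withdrawal 2. All 360 values of 20 named pathway genes did likewise. Counts of calls depended on the processing. Over all genes, 31 were called, and 6 with library totals, 380 with DESeq2 and 21 without the FPKM filter. Limma called 12 on log2(FPKM + 1) and 10 on log2(FPKM + 0.1). Without control 2 and withdrawal 2, 2088 were called, and 4 to 893 with single libraries left out (893 without withdrawal 2). Of the 10 genes, 2 were called, and 0 with library totals and with both limma fits (each 6 at an unadjusted p under 0.05), 1 without the FPKM filter, 6 with DESeq2, 5 without control 2 and withdrawal 2, and 0 to 5 with single libraries left out (5 without withdrawal 2). Of the pathway genes 0 were called, and 3 with DESeq2, 29 without control 2 and withdrawal 2 and 0 to 10 with single libraries left out. The cause of these differences was not tested.

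With the replicate number as a block, edgeR called 0 genes (1914 at an unadjusted p under 0.05), and 0 of the 10 genes (5 at an unadjusted p under 0.05). The labels do not say that numbers pair mice. Deviations of same-numbered libraries correlated at -0.128 to 0.305 over the 4 shared numbers. Among the libraries of these numbers alone, 5 of 8 correlated best with their own number. With all libraries compared, controls 1, 3 and 4 correlated best with withdrawal 6, at 0.451, 0.306 and 0.46. Depth limits Hes5 most, with 35 counts in its lowest library. Counting error is a lower bound on the error, since reads carry no molecular identifiers.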

Other observations

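Without control 2 and withdrawal 2, 29 of the 140 pathway genes passed the edgeR test, 11 higher and 18 lower. In the same fit 14% of all tested genes passed, 6.36% higher and 7.63% lower. The genes below were named after their values were seen. Among hedgehog genes, the target and effector Gli1 rose with a log2 change of 0.96 (SE 0.220, adjusted p = 0.0213 by edgeR) and the receptor Ptch1 with one of 0.38 (SE 0.0741, adjusted p = 0.012 by edgeR). Over all 10 libraries Gli1 had 5.18 ± 2.76 CPM (SD, n = 4) and 10.6 ± 4.99 CPM (SD, n = 6), and Ptch1 98.1 ± 25.8 and 138 ± 18.4 CPM, and neither passed (edgeR adjusted p = 0.39 and 0.272). The lowest library of each group for Gli1 was control 2 (1.70 CPM) and withdrawal 2 (1.603 CPM). Gli2, another hedgehog effector, differed the other way over all 10 libraries, at 9.12 to 10.4 CPM in controls and 5.71 to 8.05 CPM in withdrawal without overlap (log2 change -0.51, adjusted p = 0.197 by edgeR, while DESeq2 called it lower). The ciliary factor Rfx3 fell by 1.08 in the 8 libraries (SE 0.158, edgeR adjusted p = 0.00445), while over all 10 it had an edgeR adjusted p of 0.291 and withdrawal 2 stood at 137 CPM while the remaining withdrawal libraries ranged from 43.7 to 57.9 CPM.

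Within the radial glia list the 8 libraries gave calls in both directions, 3 higher and 7 lower of 24 tested, beside the same shares over all genes. Gfap fell (log2 change -0.80, SE 0.129, adjusted p = 0.00633 by edgeR) and so did the stem cell gene Hopx (log2 change -0.36, SE 0.0718, adjusted p = 0.014 by edgeR), while Lrig1, a growth factor receptor inhibitor, rose (log2 change 0.61, SE 0.134, adjusted p = 0.0188 by edgeR).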
